A study of Homo sapiens with 2 samples.

Results

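Serpins are a family of proteins that share one fold, and most of them inhibit serine proteases. An inhibitory serpin offers the protease an exposed loop as bait. When the loop is cut, the serpin snaps into a more stable shape and traps the enzyme in an inactive complex. The liver secretes many of the plasma serpins, which hold coagulation, fibrinolysis and inflammatory proteases in check, whereas the clade B serpins mostly stay inside cells. Several members do not inhibit proteases at all and serve instead as hormone carriers or as a collagen chaperone.

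The counts of 33 serpin genes were examined among the 60623 gene entries of an RNA sequencing comparison in HepG2 cells, a human hepatocellular carcinoma line with wild-type genotype per the labels. The members were chosen by name: 9 genes of the SERPINA cluster on chromosome 14, 13 SERPINB genes on chromosomes 6 and 18, and 11 other serpin genes, among them SERPINA7 on chromosome X. Cells of the FFA group were given 1 mM fatty acids, oleic and palmitic acid carried on albumin, for 24 h. The FFA + 9-cis-RA group received this load and 10 μM of 9-cis-RA, a vitamin A derivative and agonist of both RXR and RAR, which are nuclear receptors. The authors describe 9-cis-RA both as a co-treatment and as an incubation of 24 h after the FFA treatment. The order of dosing is therefore unclear. Each group was represented by 1 library, and both were recorded in a single batch. A culture without FFAs was not analysed here, and HepG2 cells differ from normal hepatocytes.

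The files hold fragment counts per gene, 60821539 in all for FFA and 57669670 for FFA + 9-cis-RA. DESeq2 size factors put both libraries on one scale. A log2 fold change below compares the FFA + 9-cis-RA library with the FFA library after a pseudocount of 1, for genes whose summed count in the pair of libraries reached 10. Paired values are given with FFA first, and gene positions are on GRCh38. A pseudocount makes the change of weakly counted genes look smaller. Because each group is a single library, replicate spread is unknown, and neither a p-value nor an SD can be given. The 95% interval beside a value is exact (Clopper-Pearson), covers counting error only, and describes these libraries rather than the treatments. Among the 9 hepatocyte markers examined, ALB, AFP, APOA1 and APOB were abundant in both libraries, at 1796 to 4620 CPM (counts scaled to equal library totals). TF, HNF4A and ASGR1 lay between 373 and 739.5 CPM. FGB was lower at 26.4 and 48.9 CPM, and TTR was the lowest at 5.61 and 4.82 CPM. Markers of other cells were low in sum except LYZ. Of 4 leukocyte and macrophage markers, LYZ had 5883 and 3332 counts, CD163 34 and 24, CD68 5 and 15, and PTPRC 0 in both. The 3 endothelial markers summed to 4.14 and 2.72 CPM, with VWF at 184 and 118 counts. The 5 fibroblast and stellate markers summed to 0.871 and 0.572 CPM, with PDGFRB at 37 and 21 counts and DCN at 0 in both. The 4 squamous markers summed to 0.0164 and 0.0347 CPM, with KRT5 and TP63 at 0 in both. CYP26A1, a retinoic acid-inducible gene used to check the treatment label, had 4 counts with FFA and 709 with 9-cis-RA added.

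Of the 33 serpins, 19 passed the count minimum, and each of these had at least 35 counts in both libraries. One of them, SERPINB9, had a log2 fold change above 1, and 3 lay below -1: SERPINA7, SERPINA11 and, at the very edge, SERPIND1. Over all 20431 genes compared, 3.37% lay above 1 and 4.90% below -1. The counting interval lay above 0 for 8 serpins and below 0 for 9, against 22.5% and 25.7% of all genes compared. Only SERPINA3 and SERPINA4 had an interval that included 0. A high count narrows the interval. The whole interval lay above 1 for SERPINB9 and below -1 for SERPINA7, which applied to 0.387% and 0.930% of all genes.

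The 4 compared SERPINB genes were all higher in the FFA + 9-cis-RA library, with a median log2 fold change of 0.58. The 7 compared genes of the SERPINA cluster had a median of -0.13, with 3 higher and 4 lower. The 8 other compared serpins had a median of -0.51, with 2 higher and 6 lower. The median over all compared genes was -0.020, with quartiles at -0.26 and 0.18. Of all 20431 compared genes, 9751 were higher and 10680 lower. Members of a group are not replicates, and with 4 to 8 genes per group these medians are descriptions of the listed genes.

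**Figure D1:**
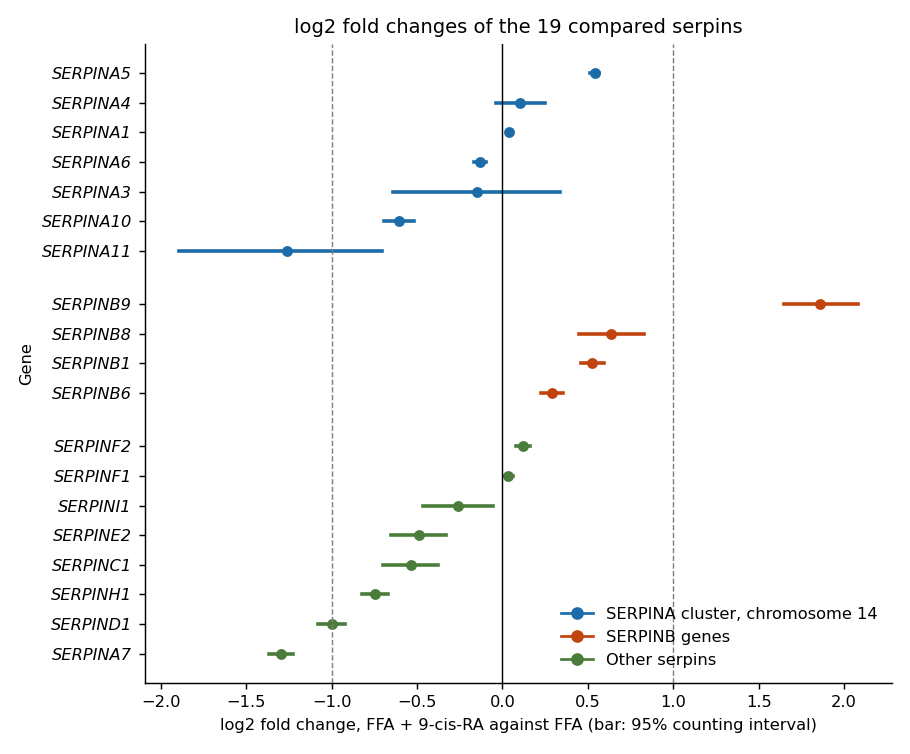
Log2 fold changes (x axis; FFA + 9-cis-RA against FFA) of the 19 compared serpins, 1 gene per row on the y axis, grouped and colored by locus. Points are values, bars are exact 95% counting intervals and dashed lines mark -1 and 1; all 4 SERPINB genes lie right of 0, while 6 of the 8 other serpins lie left of it.

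The stretches just upstream of the 4 genes past the threshold are printed here because these genes mark the ends of the family's range. For these 4 genes the transcription start in RefSeq coincides with the gene start in the deposited tables. Each line gives the 150 bases before the start, 5′ to 3′ on the gene's strand, from RefSeq on GRCh38.p14. Capitals mark exact matches, on either strand, to AGGTCA, the hexamer that RXR and RAR recognize and which reads TGACCT on the other strand, or to TATAAA, the core of a TATA box. SERPINB9 lies at chr6:2903310-2903459 and SERPINA7 at chrX:106038728-106038877, both on the minus strand. SERPINA11 lies at chr14:94452801-94452950 on the minus strand and SERPIND1 at chr22:20773963-20774112 on the plus strand.
SERPINB9: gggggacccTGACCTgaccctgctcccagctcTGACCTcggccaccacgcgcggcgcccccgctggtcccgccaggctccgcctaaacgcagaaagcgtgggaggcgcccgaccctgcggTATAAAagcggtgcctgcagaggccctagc
SERPINA7: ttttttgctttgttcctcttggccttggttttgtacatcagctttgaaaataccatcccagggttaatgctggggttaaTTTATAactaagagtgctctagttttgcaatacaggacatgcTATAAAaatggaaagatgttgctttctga
SERPINA11: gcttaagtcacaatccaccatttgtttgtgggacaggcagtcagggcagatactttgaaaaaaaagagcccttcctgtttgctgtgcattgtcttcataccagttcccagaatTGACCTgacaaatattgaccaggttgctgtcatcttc
SERPIND1: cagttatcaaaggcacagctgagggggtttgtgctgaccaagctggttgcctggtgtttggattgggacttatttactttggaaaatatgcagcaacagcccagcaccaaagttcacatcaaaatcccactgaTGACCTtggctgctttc

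The SERPINB9 stretch holds 2 matches to AGGTCA on the opposite strand, beginning 141 and 118 bases before the start, and a TATAAA 30 bases before it. Its 250 bases upstream have a GC content of 74.4% and 27 CpG dinucleotides. The SERPINA7 stretch is of another kind: it holds TATAAA 29 bases before the start and a reverse match to it beginning 71 bases before the start, in a window of 38.8% GC with 0 CpG dinucleotides. SERPINA11 and SERPIND1 each hold 1 AGGTCA match, beginning 37 and 17 bases before the start.

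RefSeq windows were matched for 27 of the 33 members, as 41 windows. In the 250 bases before the start, AGGTCA was found in 8 of the 41 windows, against 12.1% of all 35116 windows. The 8 belong to different members, among them SERPINB9, which was higher, and SERPINA11, SERPIND1 and SERPINE2, which were lower. TATAAA was found in 8 of the 41 windows, which belong to 7 members, and in 10.7% of all windows. Pairs of AGGTCA in the same direction with a spacing of 1 base (DR1) or 5 bases (DR5), the textbook arrangements for RXR and RAR dimers, were found in 0 of the 41 windows. They are rare everywhere, in 0.0171% and 0.00285% of all windows, so their absence here says nothing about the serpins. These are letter matches in a short window, and binding was not measured.

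SERPINB9 showed the largest value of the family. It encodes an intracellular inhibitor of granzyme B, the killing protease of cytotoxic lymphocytes. The gene lies on chromosome 6 from 2887270 to 2903309 on the minus strand, and it was counted 224 times with FFA and 800 times with FFA + 9-cis-RA. The log2 fold change was 1.86 (95% interval 1.65 to 2.08), or 3.63-fold. It ranked 14 from the top among 13306 genes whose normalized count reached 100 in either library. Its target GZMB had 1 count in the FFA library and 0 in the other, so the protease side could not be compared in these cells.

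The other SERPINB genes were higher by smaller amounts. SERPINB8, which encodes an inhibitor of the proprotein convertase furin, had 377 and 575 counts (log2 fold change 0.64, 95% interval 0.45 to 0.83). FURIN itself had 11177 and 23494 counts (log2 fold change 1.10, 95% interval 1.07 to 1.13), so inhibitor and target were both higher in the FFA + 9-cis-RA library. SERPINB1, an inhibitor of neutrophil elastase and related proteases, had 3195 and 4514 counts (log2 fold change 0.53, 95% interval 0.46 to 0.59). SERPINB6, an intracellular inhibitor of trypsin-like proteases and cathepsin G, had 3693 and 4429 counts (log2 fold change 0.29, 95% interval 0.23 to 0.35). Together the 13 SERPINB genes took 0.0123% of all FFA counts (exact 95% interval 0.0120 to 0.0126) and 0.0179% of all FFA + 9-cis-RA counts (0.01755 to 0.01825).

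The SERPINB genes that could be compared were those of the chromosome 6 group plus a single gene at the far end of the chromosome 18 group. On chromosome 6, SERPINB1, SERPINB9 and SERPINB6 lie on the minus strand within 2832332 to 2972165, a span of 139.8 kb, with SERPINB9 between the other two. On chromosome 18, 10 genes lie between 63476958 and 64019779, and only SERPINB8 passed the minimum. No count was found in either library for SERPINB3, SERPINB10, SERPINB11, SERPINB12 or SERPINB13. SERPINB2 had 4 and 0 counts, SERPINB7 0 and 3, SERPINB4 0 and 1, and SERPINB5, the maspin gene, 1 and 0. The upper limit for a gene at 0 is 3 counts, which equals 0.0493 CPM for FFA and 0.0520 CPM for FFA + 9-cis-RA. Several of these genes are known from squamous epithelium, whose 4 markers examined had at most 2 counts in either library. SERPINB3 and SERPINB4 are close copies: 23.3% of the 50-base words of SERPINB3 transcripts also occur in SERPINB4, and reads mapping to several places were not counted, so their low counts are uncertain. SERPINB2 and SERPINB10 share 20.0% and 20.2% of their exonic bases with each other, strand included, and reads there went to neither gene.

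SERPINA1 was the most abundant serpin by far. It encodes α1-antitrypsin, the main plasma inhibitor of neutrophil elastase, and lies on chromosome 14 from 94376747 to 94390693 on the minus strand. It was counted 294592 times with FFA and 296345 times with FFA + 9-cis-RA, which gives 0.036 on the log2 scale (95% interval 0.029 to 0.044). This difference is smaller than the shift that the choice of scaling makes, since the value was 0.085 with total-count scaling. SERPINA1 took 0.484% of all counts (exact 95% interval 0.483 to 0.486) in the FFA library and 0.514% (0.512 to 0.516) in the other. It supplied 75.2% and 74.9% of the counts of all 33 serpins. Per kilobase of exon it stood at 59524 and 61036 normalized counts, the rank of 27 and 24 among all gene entries.

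Levels of the other serpins were far lower on the same scale of normalized counts per kilobase. In the FFA library SERPINF1 stood at 8500, SERPINA6 at 7489, SERPINA5 at 5637, SERPINF2 at 3872, SERPINA7 at 2093 and SERPIND1 at 1699. In the FFA + 9-cis-RA library the order of the leading genes was SERPINF1 at 8701, SERPINA5 at 8198, SERPINA6 at 6835 and SERPINF2 at 4206, so SERPINA5 and SERPINA6 exchanged places. SERPINA7 and SERPIND1 stood at 851.5 and 849.0 there, behind SERPINB1 at 1496. SERPINB9 moved from 53.6 to 195.0 on this scale, past SERPINA11, SERPINB8, SERPINE2 and SERPINI1. In the FFA + 9-cis-RA library it was still far below the leading secreted serpins, though above the secreted SERPINA3, SERPINA11, SERPINE2 and SERPINI1.

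**Figure D2:**
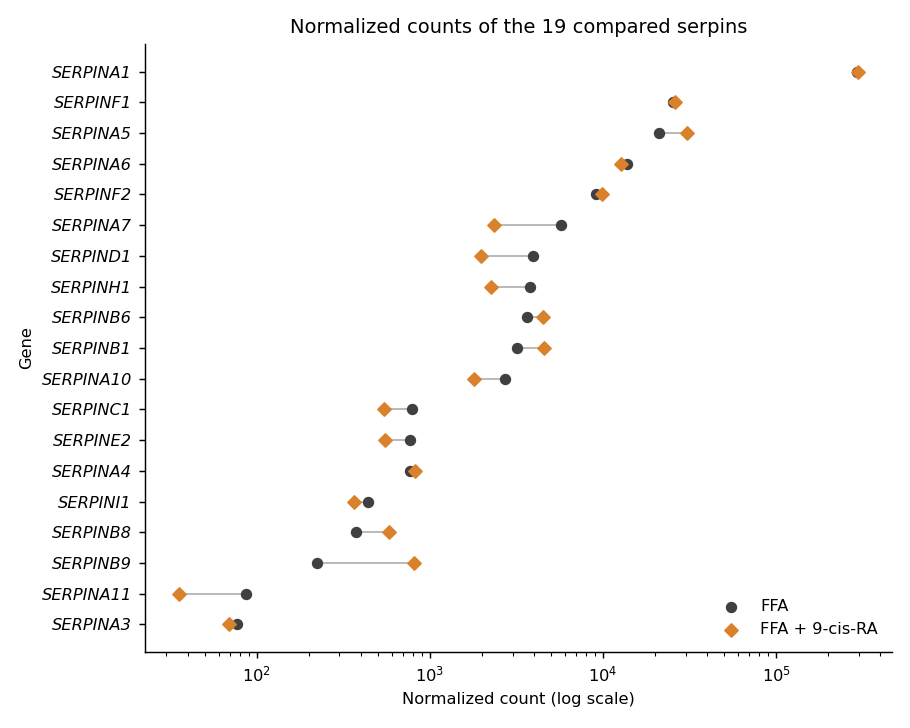
Normalized counts (x axis, log scale) of the 19 compared serpins (y axis) in the FFA library (dark circles) and the FFA + 9-cis-RA library (orange diamonds), ordered by the FFA value; each point is 1 library. SERPINA1 stands apart at the top, and the widest gaps are those of SERPINB9, SERPINA7 and SERPINA11.

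Both hormone carriers of the family were counted well. SERPINA7 encodes thyroxine-binding globulin, which carries thyroid hormone in plasma, and lies on chromosome X from 106032435 to 106038727 on the minus strand. It was counted 5791 times with FFA and 2311 times with FFA + 9-cis-RA. The log2 fold change of -1.30 (95% interval -1.37 to -1.23) was the lowest of the family and corresponds to a level 2.46-fold lower. SERPINA6 encodes corticosteroid-binding globulin, the cortisol carrier, and belongs to the chromosome 14 cluster. It had 13965 and 12504 counts (log2 fold change -0.13, 95% interval -0.17 to -0.097). The counting intervals of the carriers do not overlap, but they are narrow at such counts and leave out the spread between cultures. Among 9 compared genes of hormone binding and action, the median was -0.27, from ALB at -0.70 to NR3C1, the glucocorticoid receptor gene, at 0.33.

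Among the inhibitors of the chromosome 14 cluster, SERPINA5 stood out on the higher side. It encodes the protein C inhibitor, which acts on activated protein C and other coagulation proteases, and had 21346 and 30456 counts. Its log2 fold change was 0.54 (95% interval 0.52 to 0.57). PROC, the gene of protein C, went the other way with 8112 and 5682 counts and a log2 fold change of -0.49. SERPINA4, the kallistatin gene, was nearly level with 771 and 813 counts (log2 fold change 0.10, 95% interval -0.040 to 0.25). SERPINA4 and SERPINA5 share a first annotated position, and 2.67% of the exonic bases of SERPINA4 are covered by the other gene.

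SERPINA10 encodes the protein Z-dependent inhibitor of coagulation factor Xa. It had 2752 and 1772 counts (log2 fold change -0.61, 95% interval -0.69 to -0.52). PROZ, the gene of its cofactor protein Z, had 587 and 348 counts (log2 fold change -0.73, 95% interval -0.92 to -0.53), and the target F10 had 2135 and 1856 counts with a value of -0.17. Inhibitor and cofactor were thus both lower in the FFA + 9-cis-RA library. SERPINA11 fell below the threshold on few counts, 87 and 35, with a log2 fold change of -1.26 and a wide interval (-1.90 to -0.70). SERPINA3, the gene of α1-antichymotrypsin and an acute phase protein of normal liver, had only 77 and 68 counts, and its interval ran from -0.64 to 0.34. A same-strand gene, ENSG00000273259, covers 31.8% of the exonic bases of SERPINA3, where reads were not assigned, and that gene itself had 71 and 79 counts. SERPINA9 had 3 and 0 counts and SERPINA12, the vaspin gene, 0 in both.

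Along the chromosome 14 cluster, which spans 343.6 kb from 94280460 to 94624055, the values did not run in one direction. In genomic order they were -0.61 for SERPINA10, -0.13 for SERPINA6, 0.036 for SERPINA1, -1.26 for SERPINA11, 0.10 for SERPINA4, 0.54 for SERPINA5 and -0.15 for SERPINA3. The 8 compared genes beside the cluster had a median of -0.12, from IFI27 at -0.57 to IFI27L1 at 0.10. On chromosome 6 the 3 serpins ran 0.53, 1.86 and 0.29 in genomic order, and the 8 genes beside them had a median of 0.11, from BPHL at -0.39 to NQO2 at 0.47. The 5 compared genes beside the chromosome 18 group had a median of 0.14, from PHLPP1 at -0.18 to TNFRSF11A at 0.32. Not all of the genes called beside a group are close to it. Measured from the start of the first serpin gene, PHLPP1 ends at -496.5 kb and TNFRSF11A at -1086 kb on chromosome 18. On the same measure GMDS ends at -586.7 kb on chromosome 6, and DICER1 starts at 805.8 kb on chromosome 14.

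**Figure D3:**
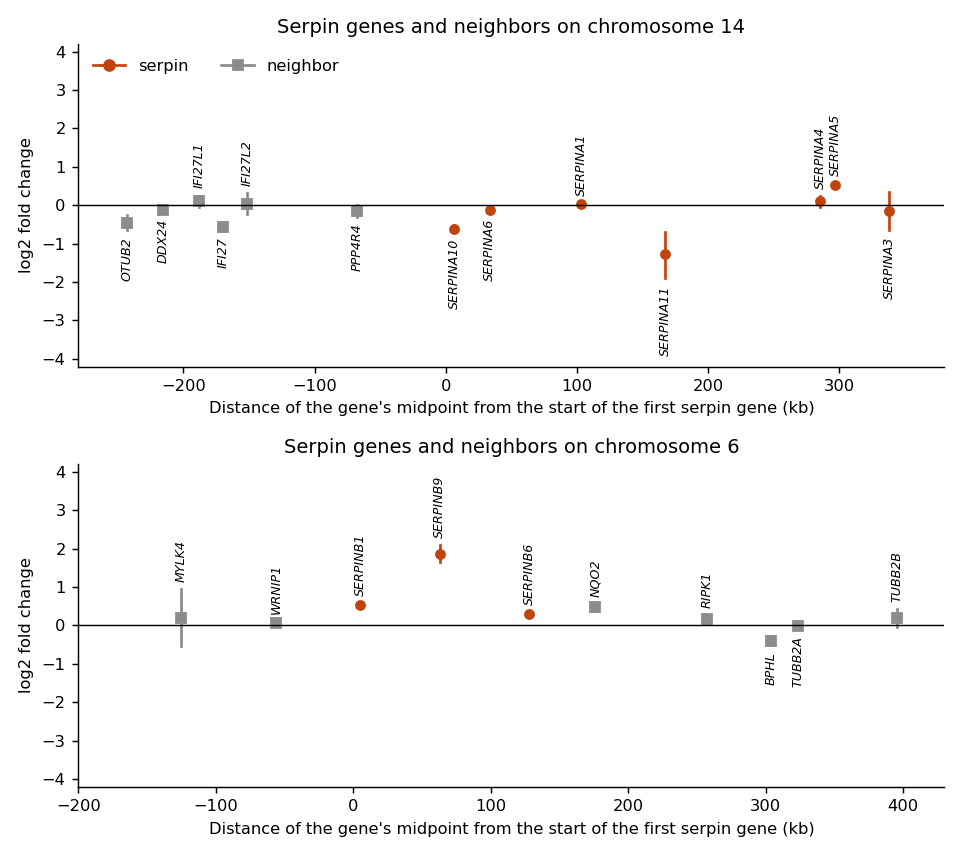
Log2 fold changes (y axis; bars are exact 95% counting intervals) of serpin genes (circles) and neighboring genes (squares), placed by the distance of each gene's midpoint from the start of the first serpin gene in kb (x axis), for chromosome 14 and chromosome 6. Genes beyond the plotted range or under the count minimum are left out; SERPINB9 at 1.86 rises above all its plotted neighbors, while the serpins of chromosome 14 lie on both sides of 0.

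Of the coagulation inhibitors outside the clusters, the thrombin inhibitors SERPIND1 and SERPINC1 were lower. SERPIND1 encodes heparin cofactor II, a thrombin inhibitor, on chromosome 22 from 20774113 to 20787720. It had 3978 and 1950 counts (log2 fold change -1.0006, 95% interval -1.08 to -0.92). This lay just past -1, and with TMM factors it was -0.98, so whether it counts as past the threshold depends on the scaling. SERPINC1, the antithrombin gene, had 791 and 535 counts (log2 fold change -0.54, 95% interval -0.70 to -0.38). F2, the gene of their target thrombin, was at -0.05 with 12210 and 11550 counts.

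SERPINF2 and SERPINF1 lie beside each other on chromosome 17, and both were close to level. SERPINF2, the gene of α2-antiplasmin, the plasmin inhibitor, had 9179 and 9782 counts (log2 fold change 0.12, 95% interval 0.078 to 0.16). PLG, the gene of plasmin's precursor, had 0 counts in both libraries. SERPINF1 encodes the pigment epithelium-derived factor, a serpin that does not inhibit proteases, and had 25660 and 25767 counts with a log2 fold change of 0.034 (95% interval 0.0086 to 0.059). PNPLA2, which encodes the lipase ATGL and a reported receptor of this factor, had 3411 and 5478 counts and a log2 fold change of 0.71. SERPING1, the gene of the C1 inhibitor, had 3 and 0 counts, although its targets C1S and C1R were counted, C1S with 1773 and 1727 and C1R with 410 and 489.

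SERPINH1 encodes HSP47, the chaperone that binds procollagen in the endoplasmic reticulum. It had 3803 and 2227 counts (log2 fold change -0.74, 95% interval -0.82 to -0.67). The 17 compared collagen folding partners had a median of -0.13, with 5 higher and 12 lower, where 10680 of all 20431 compared genes were lower. Their values ran from COL5A1 at -0.71 on 131 and 78 counts to P4HA2 at 0.25. The intervals of COL5A1, COL4A2, COL5A2 and COL3A1 include the SERPINH1 value, and those of the other compared partners lie above it. These collagen genes had low counts and wide intervals, COL3A1 with only 12 and 9 counts. COL1A1, COL1A2 and COL4A1 were under the count minimum. SERPINE2, an inhibitor of thrombin and urokinase at the cell surface, had 774 and 541 counts (log2 fold change -0.49, 95% interval -0.65 to -0.33). SERPINI1, the neuroserpin gene, had 441 and 361 counts (log2 fold change -0.26, 95% interval -0.47 to -0.057). SERPINI2 had 0 counts in both libraries and SERPINE3 had 0 and 1.

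Arranged by role, the 8 compared plasma protease inhibitors were evenly divided, with 4 higher and 4 lower and a median of -0.057. Over all serpins outside clade B, 5 of the 15 compared were higher and 10 lower, with a median of -0.26. Among all 20431 compared genes, 10680 were lower. In summed counts, the 11 serpins outside both clusters went from 0.0829% of all counts (exact 95% interval 0.0822 to 0.0836) to 0.0754% (0.0747 to 0.0761), while the SERPINA cluster without SERPINA1 went from 0.0641% (0.0635 to 0.0648) to 0.0792% (0.0784 to 0.0799). SERPINA5 alone supplied most of the counts of that cluster remainder. The hepatocyte markers moved unevenly in the same libraries. AFP, ALB, ASGR1, TTR, TF and HNF4A were lower, with log2 fold changes of -0.99, -0.70, -0.31, -0.27, -0.19 and -0.14, whereas FGB was higher at 0.84 and APOB and APOA1 stood at 0.050 and 0.039. Summed over the 9 hepatocyte markers, the level was 15386 CPM with FFA and 12377 CPM with FFA + 9-cis-RA, a difference carried by ALB and AFP. The part of these marker values in the serpin values was not tested, and in a bulk culture fewer cells of a kind and less RNA per cell cannot be told apart.

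Of 34 listed genes of proteases that serpins act on, only 22 could be compared. Of these, 5 were higher and 17 lower, with a median of -0.32, where 10680 of all 20431 compared genes were lower. The interval lay above 0 for 4 and below 0 for 12, against 22.5% and 25.7% of all compared genes. Past the threshold, which 3.37% of all compared genes exceeded upward and 4.90% downward, FURIN lay above 1 and 4 genes below -1: PLAU, the urokinase gene, at -1.21, F11 at -1.08, CTSS at -1.05 and KLKB1 at -1.85 on 10 and 2 counts. ELANE, CTSG and PRTN3, the neutrophil proteases that SERPINA1, SERPINA3 and SERPINB1 are known to inhibit, had at most 1 count in either library. The 16 compared clearance receptors and cofactors had a median of 0.014, from PROZ to PNPLA2, and LRP1, an endocytic receptor of serpin-protease complexes, was at 0.05.

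Protease inhibitors of other families lay on both sides of 0. Of 25 listed, 22 were compared, with 8 higher and 14 lower and a median of -0.22. Of these, 3 lay below -1. Over all 20431 compared genes, 10680 were lower and 4.90% lay below -1. TFPI, the gene of tissue factor pathway inhibitor, had 10122 and 2454 counts (log2 fold change -2.02, 95% interval -2.08 to -1.95), lower than any compared serpin. FETUB was at -1.78 on 48 and 13 counts, and ITIH4 at -1.30 on 9 and 3 counts with an interval that included 0. SPINK1, a trypsin inhibitor gene, was the highest at 0.79.

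**Figure D4:**
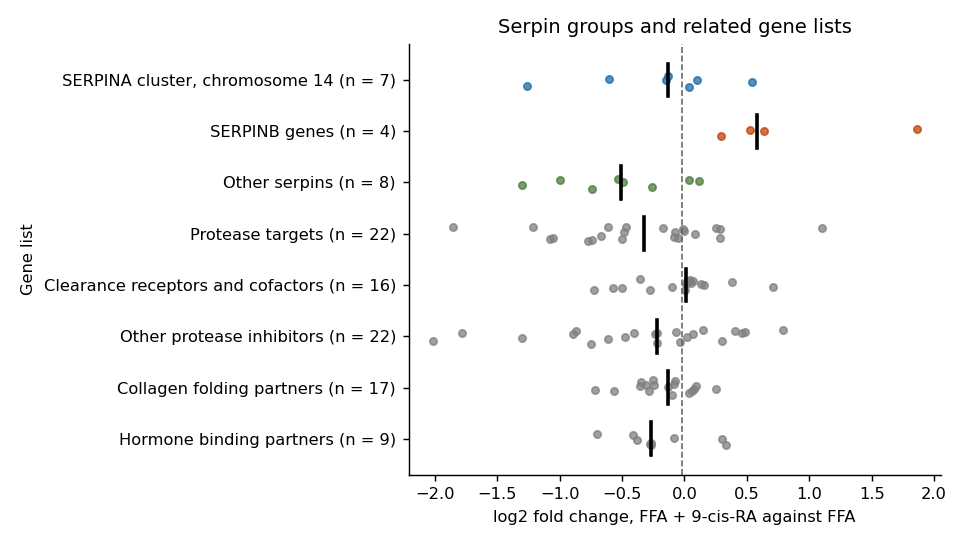
Log2 fold changes (x axis) of the compared genes in the 3 serpin groups and in 5 related gene lists (y axis); each point is a gene, black bars are list medians and the dashed line is the median of all compared genes (-0.020). The SERPINB genes have the highest median at 0.58 and the other serpins the lowest at -0.51.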

How the data were processed

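RNA was sequenced from FFA-loaded HepG2 cells without or with 9-cis-RA, 1 library per group. The authors deposited raw counts per gene from featureCounts version 2.0.1. Per the file headers, read pairs with both ends mapped were counted on the reverse strand (setting 2), with a fragment length check. Reads with several positions or overlapping several genes were left out by default, which lowers the counts of near-copies and overlapping genes. The submitters' processing notes name GRCh38 and DESeq2; the aligner and annotation release are not given in the sources used here.

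Symbols were matched to 60295 of 60623 entries. Positions and exon overlaps come from the files. The whole table gave the size factors (DESeq2 version 1.42.0), and TMM factors with edgeR version 4.0.16 (R version 4.3.3). Intervals, loess trends (span 0.3) and plots came from scipy 1.17.1, statsmodels 0.14.6 and matplotlib 3.10.9, run in Python 3.11.15 beside pandas 2.3.3 and numpy 2.4.6. PCR reads without molecular identifiers are not independent molecules, so intervals and floors (3 counts) cover counting error only. The fold change and interval steps were tested on simulated counts that carried counting error only, so spread between cultures was not covered by that test. No model could be fitted across 1 library per group.

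All members were named. Of the other lists, the highest and lowest gene whose normalized count reached 100 in either library, and every gene past 1, were named by rule; partner genes of single serpins were named after their values were seen. Members and lists were chosen with earlier results of these data known. Protein, luciferase and staining experiments were not analysed here. One hepatocyte marker is not reported here, and its counts are left out of the marker sum.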

Additional observations from a re-analysis of the deposited data

How the results depend on the processing

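All 19 compared serpins kept the sign of their log2 fold change under each of the 8 alternatives run: TMM factors, total counts, pseudocounts of 0.1 and 5, no minimum, a minimum of 50 counts, and removal of the trends on gene length and on mean expression. Of the 152 member values under an alternative, 16 moved past the main counting interval. The median of the SERPINA cluster was -0.036 and -0.056 after removal of the length and the expression trend, and -0.083 under total-count scaling, while its other values, and all those of the SERPINB genes and the other serpins, stayed within the counting interval of the genes they rest on. Without a minimum, 4 serpins lay above 1 and 6 below -1, and all of the added ones had at most 4 counts. With the whole interval required to lie past 1, the number below -1 was 1, SERPINA7. SERPIND1 left the set below -1 with TMM factors (-0.98), total counts (-0.95), a pseudocount of 5 and the length trend removed, giving 2. The number of genes below -1 in the whole table, as a share of all past 1, was 59.3%, against 49.0% with the expression trend removed, 70.2% with a minimum of 50 counts and 39.8% without a minimum. Over all genes the counts above and below 1 were 689 and 1002, against 341 and 594 with a pseudocount of 5, 3771 and 2493 without a minimum and 153 and 361 with a minimum of 50. No paired analysis was possible because each group has 1 library. Differences between cultures of the same treatment cannot be measured here, and a count of 0 leaves levels under 0.0493 and 0.0520 CPM undetected.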
